A study of Mus musculus with 6 samples.

Results

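The mitochondrial tRNAs for glycine, mt-Tg, and arginine, mt-Tr, lie on either side of mt-Nd3, the mRNA of a subunit of respiratory complex I. Both were chosen by gene, not by a cut on any measured value, although earlier results of these data were known. They are 2 of the 37 genes and 2 of the 22 tRNA genes of the mouse mitochondrial chromosome. They were read on the forward strand, the strand on which both are annotated. The small RNA came from islets of the pancreas, which hold its insulin- and glucagon-secreting cells, of 3 mice of genotype Mrpp3WT and 3 of genotype Mrpp3N434S, with 1 library each. All 6 mice ate a high-fat diet for 14 weeks, so the diet was shared by both groups. Mrpp3 encodes the nuclease subunit of mitochondrial RNase P, and the design text names small RNA coverage and the mismatch at position 9 of tRNAs as what was examined. Neither age and sex nor the zygosity of the mutation is stated in the labels. The measurements were counts of each base read at each mitochondrial position, so neither the islet origin nor the genotype, which rest on nuclear genes, was checked against marker genes.

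Mitochondrial genes are transcribed as long precursors in which tRNAs sit between the mRNAs. RNase P, made of MRPP1, MRPP2 and MRPP3, cuts at the 5′ end of each tRNA, and ELAC2 cuts at its 3′ end, which frees the neighbouring mRNAs as well. MRPP1, working with MRPP2, is also the methyltransferase for A or G at position 9, and a methyl group there can make reverse transcriptase stop or insert a wrong base.

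Both genes are 68 bases long and carry A at position 9, as 14 of the 22 tRNA genes do. In GRCm38, mt-Tg (ENSMUSG00000064359.1) is chrM:9391-9458, directly between the protein-coding genes mt-Co3 (chrM:8607-9390) and mt-Nd3 (chrM:9459-9806). The gene mt-Tr (ENSMUSG00000064361.1) is chrM:9808-9875, with 1 base between it and mt-Nd3 and 1 base before mt-Nd4l (chrM:9877-10173). The 2 tRNA genes are printed whole because every profile below runs along them, 5′ to 3′ on the forward strand, with position 9 and the anticodon in capitals and T standing for U.
mt-Tg: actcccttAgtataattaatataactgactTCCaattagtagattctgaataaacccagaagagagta
mt-Tr: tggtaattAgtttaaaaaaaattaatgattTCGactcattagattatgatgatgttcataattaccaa
Position 9 is at 9399 in mt-Tg and at 9816 in mt-Tr, counting from 1 at the 5′ end of each gene. The anticodon was at bases 31 to 33 in both, flanked by a stem of 5 base pairs. The genes had the same base at 37 of 68 positions (54.4%), and their longest shared run was TAGATT at bases 40 to 45. A and T made up 69.1% of mt-Tg and 77.9% of mt-Tr, ranks 4 and 2 among the 22 tRNA genes, whose median was 65.9%. A run of 8 A at bases 14 to 21 set mt-Tr apart from the other tRNA genes, of which none had a run that long, whereas the longest run of A in mt-Tg was 3.

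The libraries summed to 3156761 to 4337052 mitochondrial bases in Mrpp3WT and 5461367 to 10923311 in Mrpp3N434S over both strands, so every mutant library had the higher sum. Most of it was rRNA, with 2140877 to 2797193 in Mrpp3WT and 4240630 to 8756582 in Mrpp3N434S. Summed over the tRNA genes the groups overlapped, at 409354 to 713561 and 442242 to 751962. These sums are not read totals of the libraries. The highest depth at any position was 8000, in rRNA, and a depth limit there is inferred from the values. The highest depth on mt-Tg was 1389 and on mt-Tr 48, far from that limit. The sums used below to scale to library totals and to rRNA do include the rRNA positions near it. The highest depth was 7436 to 7756 in the Mrpp3WT libraries and 7997 to 8000 in the Mrpp3N434S libraries. Whether the limit bears on those 2 scalings was not tested. Mean depth on the opposite strand was at most 1.03 over mt-Tg and 2.97 over mt-Tr.

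mt-Tg was the better covered of the pair in every library. Its mean depth, in bases read per position, was 633, 358 and 282 in Mrpp3WT replicates 1, 2 and 3 and 922, 412 and 535 in Mrpp3N434S replicates 1, 2 and 3; values below keep this order. That of mt-Tr was 31.9, 15.4 and 14.1 in Mrpp3WT and 23.1, 11.3 and 22.4 in Mrpp3N434S. Averaged over the 6 libraries, mt-Tg ranked 8 of 37 genes and 6 of 22 tRNAs with 524, and mt-Tr ranked 30 of 37 and 18 of 22 with 19.7. Around mt-Tg in the tRNA order, the histidine tRNA mt-Th (805) was higher in 6 of 6 libraries, and the glutamate tRNA mt-Te (428) was higher in 1 of 6. Around mt-Tr, the leucine tRNA mt-Tl2 (25.5) was higher in 5 of 6 libraries and the tryptophan tRNA mt-Tw (14.8) in 1 of 6, so apart from mt-Th none of these neighbours kept its order in every library. The mRNAs beside them averaged 53.2 for mt-Co3, 51.6 for mt-Nd3 and 72.0 for mt-Nd4l, below mt-Tg and above mt-Tr.

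Along mt-Tg, depth was low over the first 9 bases, climbed to the anticodon and stayed high to the 3′ end. At base 2 the depth was 31, 30 and 24 in Mrpp3WT and 43, 27 and 31 in Mrpp3N434S, and at position 9 it was still 42, 37 and 34 against 59, 32 and 40. From base 10 it rose in small steps to 328, 237 and 174 against 425, 266 and 318 at base 20. The largest rise between neighbouring bases was from base 26 to base 27 (position 9417), on the 5′ side of the anticodon stem, by 213, 99 and 69 against 473, 105 and 129. That single step was 22.6%, 19.1% and 16.7% of the library's highest depth on mt-Tg in Mrpp3WT and 34.1%, 17.6% and 16.3% in Mrpp3N434S, so mutant replicate 1 stood above the other 5 libraries. The first base at 50% or more of the highest depth was base 26, 23 and 25 in Mrpp3WT and 27, 24 and 25 in Mrpp3N434S. The highest depth, 942, 519 and 414 against 1389, 597 and 789, was first reached at bases 37 to 43, 3′ of the anticodon. At base 68, the last of the gene, 761, 408 and 310 bases were still read in Mrpp3WT and 1054, 452 and 626 in Mrpp3N434S, so depth stayed high up to the annotated end.

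**Figure D1:**
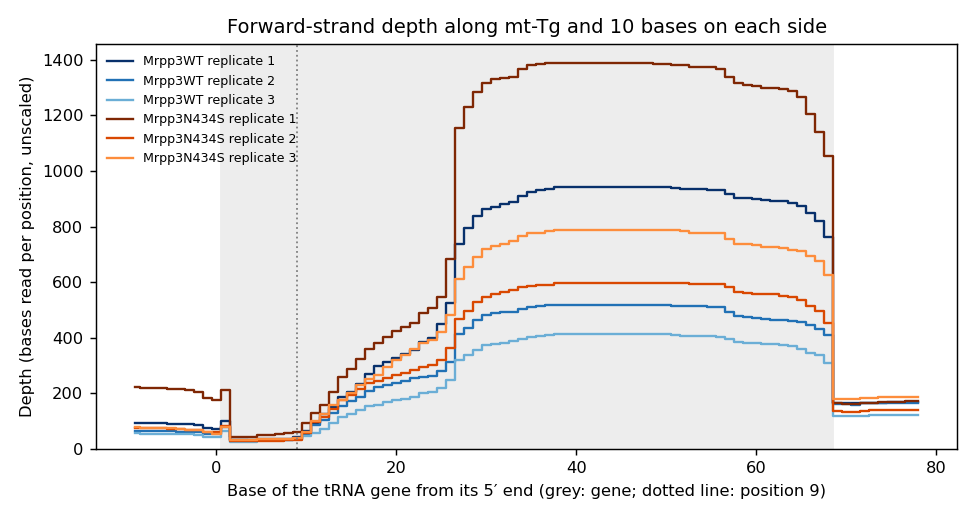
Depth on the forward strand (bases read per position, unscaled) against the base of mt-Tg counted from its 5′ end, with 10 bases on each side; each line is 1 library, the grey band is the gene and the dotted line is position 9. In all 6 libraries depth stays between 24 and 59 from base 2 to position 9, steps up at base 27 and drops after base 68.

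The profile of mt-Tr had another shape: it was highest in the middle and fell off before both ends. Depth was 20, 10 and 3 in Mrpp3WT and 9, 7 and 8 in Mrpp3N434S at base 1, and it was 20, 11 and 3 against 10, 7 and 8 at position 9. It was therefore nearly flat over the first 9 bases. The highest depth of 48, 25 and 22 against 37, 17 and 36 was first reached at base 31, the first base of the anticodon, in all 6 libraries. It held to base 42 at the earliest and base 49 at the latest, and then fell to 7, 1 and 4 against 8, 5 and 11 at base 60. At base 68 the depth was 5, 1 and 3 in Mrpp3WT and 6, 4 and 9 in Mrpp3N434S, so few reads reached the annotated 3′ end. The first base at 50% or more of the highest depth was base 11 in all 3 Mrpp3WT libraries and base 14, 14 and 15 in Mrpp3N434S. The groups did not overlap, and the mutant libraries likewise all lay 3′ of the wild-type ones in 2 of 19 tRNAs (10.5%), mt-Tr included. This position was not tested, and at the depth of mt-Tr a few reads set it: the gain from base 10 to base 11 was 9, 2 and 9 reads in Mrpp3WT and 4, 1 and 4 in Mrpp3N434S.

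**Figure D2:**
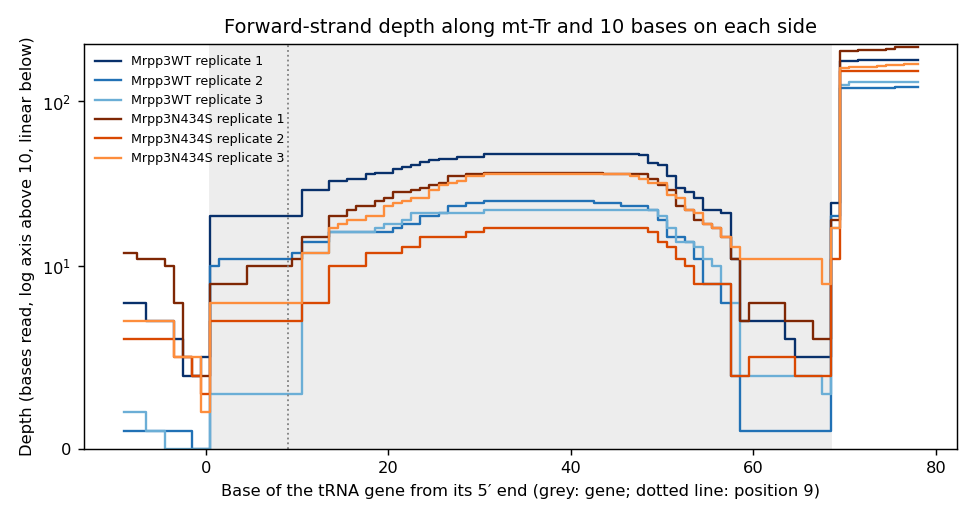
Depth on the forward strand (bases read per position; the axis is logarithmic above 10 and linear below) against the base of mt-Tr from its 5′ end, with 10 bases on each side; lines are libraries, the grey band is the gene and the dotted line is position 9. From base 1 to base 10 no line rises by more than 2 reads, and all reach their maximum at base 31, then fall to between 1 and 11 at base 60 and jump at the start of mt-Nd4l.

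Profiles were compared with those of 14 other tRNAs each, which all reached a depth of 50 in each library except mt-Tr itself. Of these, mt-Te (Pearson r = 0.96), the valine tRNA mt-Tv (0.92) and the leucine tRNA mt-Tl1 (0.80) had the profiles most like that of mt-Tg. The r was taken over 60 equal steps along each tRNA, on depth as a share of its own maximum averaged over the 6 libraries. For mt-Tr they were mt-Th (0.90), the cysteine tRNA mt-Tc (0.84) and the asparagine tRNA mt-Tn (0.83). mt-Tg and mt-Tr themselves had r = 0.41. These values describe shapes from shared libraries and neighbouring steps, which are not independent.

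Little of the depth on mt-Tg reached position 9, and no difference between genotypes passed there. The depth at position 9 was 4.46%, 7.13% and 8.21% of the highest depth over bases 20 to 60 in Mrpp3WT and 4.25%, 5.36% and 5.07% in Mrpp3N434S, or 6.60% ± 1.93 and 4.89% ± 0.577 (SD, n = 3). Exact (Clopper-Pearson) 95% intervals ran from 3.23% to 5.98% in wild-type replicate 1, from 5.75% to 11.3% in wild-type replicate 3 and from 3.25% to 5.45% in mutant replicate 1. These intervals treat the bases at position 9 as a share of the reads at the highest depth, although the reads need not be the same. They leave out variation between mice. Reads copied by PCR need not stand for separate molecules, so the intervals can be too narrow. Wild-type replicate 1 lay below 2 of the 3 mutant libraries, so the groups overlapped. By edgeR's quasi-likelihood test the ratio of position 9 depth to the rest of the highest depth differed by -0.41 on the log2 scale (SE 0.43, 95% interval -1.27 to 0.44, Benjamini-Hochberg adjusted p = 0.483). Of the 13 tRNAs tested 4 changed (30.8%), all lower in the mutant, and the median over all 13 was -0.81. Of the 6 tested tRNAs with A at position 9, 4 were lower in the mutant and 1 changed, with a median of -0.64.

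In mt-Tr a larger share of the depth reached position 9. It was 41.7%, 44.0% and 13.6% in Mrpp3WT and 27.0%, 41.2% and 22.2% in Mrpp3N434S, or 33.1% ± 16.9 and 30.1% ± 9.85 (SD, n = 3). Wild-type replicate 3 was the lowest, with 3 bases read at position 9 and an exact 95% interval from 2.91% to 34.9%, and the groups overlapped. The depth of mt-Tr was under the minimum of 50 for the test. With a minimum of 10, chosen after seeing the data, the log2 difference was -0.46 (SE 0.58, 95% interval -1.62 to 0.69, edgeR adjusted p = 0.591), where 5 of 18 tRNAs changed (27.8%). Ordered by the mean of the 6 libraries, the share was the third lowest of 18 tRNAs in mt-Tg (5.75%), after mt-Tl1 (2.11%) and the proline tRNA mt-Tp (5.21%), and it was rank 5 in mt-Tr (31.6%). The share was higher in mt-Tr than in mt-Tg in each of the 6 libraries.

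**Figure D3:**
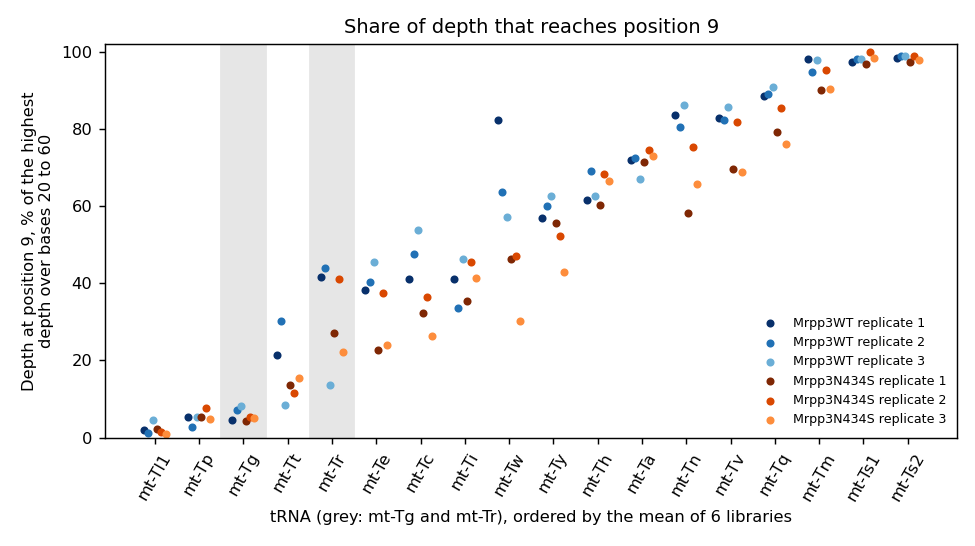
Depth at position 9 as a percentage of the highest depth over bases 20 to 60 (vertical axis) for the 18 tRNAs with enough depth, ordered by their mean over 6 libraries; each point is 1 library and the grey bands mark mt-Tg and mt-Tr. mt-Tg sits between 4.25% and 8.21% in all libraries, and mt-Tr spreads from 13.6% to 44.0% with both genotypes mixed.

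A measure that does not rest on 1 base gave no call either. The mean depth of bases 1 to 34 of mt-Tg was 0.382, 0.444 and 0.429 of that of bases 35 to 68 in Mrpp3WT and 0.375, 0.433 and 0.409 in Mrpp3N434S. The groups overlapped, and the log2 difference was -0.04 (SE 0.08, 95% interval -0.22 to 0.14, edgeR adjusted p = 0.783), the narrowest interval of any comparison made on these tRNAs. In mt-Tr the ratio was 1.15, 1.20 and 0.977 in Mrpp3WT and 0.956, 0.990 and 0.832 in Mrpp3N434S. Mutant replicate 2 lay above wild-type replicate 3, so the groups overlapped here too. The log2 difference of -0.29 had an SE of 0.36 (95% interval -1.09 to 0.51, edgeR adjusted p = 0.783). Of 19 tRNAs 2 changed (10.5%), both lower in the mutant.

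The junction sequences show where depth stepped, with tRNA bases in capitals and the neighbouring RNA in lower case. They are chrM:9381-9400 and chrM:9449-9468 for mt-Tg and chrM:9798-9817 and chrM:9866-9885 for mt-Tr.
mt-Tg 5′ junction: tgaggatcttACTCCCTTAG
mt-Tg 3′ junction: GAAGAGAGTAattaacctgt
mt-Tr 5′ junction: acagagtaaaTGGTAATTAG
mt-Tr 3′ junction: TAATTACCAAtatgccatct

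At the 5′ end of mt-Tg depth stepped up by little relative to its highest depth, and then fell 1 base inside the gene. It was 72, 55 and 42 in Mrpp3WT and 177, 59 and 54 in Mrpp3N434S at the last base of mt-Co3, and 99, 79 and 64 against 211, 82 and 80 at base 1. The step was 3.73% of the highest depth on average. Against the depth at base 2 it was large: the net gain at base 1 was 27, 24 and 22 in Mrpp3WT and 34, 23 and 26 in Mrpp3N434S. Depth at base 2 was 31, 30 and 24 in Mrpp3WT and 43, 27 and 31 in Mrpp3N434S. From base 1 to base 2 depth fell by 68, 49 and 40 reads in Mrpp3WT and by 168, 55 and 49 in Mrpp3N434S. In every library more reads covered base 1 than any base from 2 to 9, so the drop in depth lay between bases 1 and 2. Base 1 is A in the reference, and how bases were filtered before counting is not stated. Where mt-Co3 RNA ends was therefore not tested. The 10 bases 5′ of mt-Tg, all within mt-Co3, had a mean depth of 0.138, 0.170 and 0.183 of that of the tRNA in Mrpp3WT and 0.226, 0.170 and 0.130 in Mrpp3N434S. Mutant replicates 1 and 3 were the highest and the lowest of all 6, so the groups overlapped. The log2 difference was 0.11 (SE 0.24, 95% interval -0.42 to 0.64, edgeR adjusted p = 0.999). By edgeR 0 of 11 tRNA leaders changed (0%), and none reached an unadjusted p under 0.05 (0 of 11); by limma and by DESeq2 the number called was also 0. Reads that cover both the last base of mt-Co3 and base 2 can be no more than the depth at base 2. In every library that depth was below the depth at the last base of mt-Co3. The leader ratio itself does not separate uncut precursor from plain mt-Co3 mRNA, since reads across the junction are not linked. The share of uncut precursor was not tested.

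In mt-Tr the 5′ step was sharp relative to its own depth. The last base before it was read 5, 0 and 0 times in Mrpp3WT and 4, 3 and 2 times in Mrpp3N434S, and base 1 was read 20, 10 and 3 times against 9, 7 and 8. The gain at base 1 was 31.2%, 40.0% and 13.6% of the highest depth in Mrpp3WT and 13.5%, 23.5% and 16.7% in Mrpp3N434S. The 10 bases before mt-Tr, 9 of them in mt-Nd3, had a mean depth of 6.40, 0.800 and 0.800 in Mrpp3WT and 8.80, 5.30 and 5.90 in Mrpp3N434S. As a ratio to the mean depth of the tRNA this was 0.201, 0.0519 and 0.0567 in Mrpp3WT and 0.380, 0.468 and 0.263 in Mrpp3N434S, or 0.103 ± 0.0846 and 0.371 ± 0.103 (SD, n = 3). Every mutant library lay above every wild-type one, which held for mt-Tr alone among 21 leaders (4.76%). The mt-Tr leader was under the minimum mean depth of 10 for the test that the mt-Tg leader met, and in the fit without that minimum the log2 difference was 1.44 (SE 0.73, 95% interval -0.05 to 2.94, edgeR unadjusted p = 0.0579, adjusted p = 0.497), with 0 of 21 changed. The counts behind the ratio were a few reads per library, and its denominator, the depth of mt-Tr, was itself lower in the mutant libraries after scaling.

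The 3′ end of mt-Tg had the largest step of its profile. The change from base 68 to the first base of mt-Nd3 was -63.3%, -47.2% and -46.1% of the highest depth in Mrpp3WT and -63.9%, -53.1% and -56.4% in Mrpp3N434S, down to 165, 163 and 119 against 166, 135 and 181. The 10 bases after the tRNA had a mean depth of 0.262, 0.457 and 0.425 of that of mt-Tg in Mrpp3WT and 0.181, 0.332 and 0.344 in Mrpp3N434S. Replicate 1 was the lowest of its group in both genotypes, and the groups overlapped. The log2 difference was -0.43 (SE 0.30, 95% interval -1.04 to 0.18, edgeR adjusted p = 0.661), where 2 of 20 trailers changed (10.0%) and the median was -0.29.

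At the 3′ end of mt-Tr depth rose instead of falling. The single base between it and mt-Nd4l was read 24, 20 and 17 times in Mrpp3WT and 19, 11 and 17 times in Mrpp3N434S, and the first base of mt-Nd4l 176, 121 and 126 times against 202, 153 and 159. Depth at base 68 was 0.208, 0.05 and 0.176 of that at the base after it in Mrpp3WT and 0.316, 0.364 and 0.529 in Mrpp3N434S. Every mutant library was above every wild-type one, as in 5 of 19 tRNAs (26.3%); this ratio, from 1 to 9 reads at base 68, was not tested. The trailer held the start of mt-Nd4l mRNA, and its mean depth was 5.09, 7.21 and 8.46 times that of mt-Tr in Mrpp3WT and 8.17, 12.3 and 6.68 times in Mrpp3N434S. The groups overlapped in the trailer ratio, and its log2 difference was 0.39 (SE 0.43, 95% interval -0.49 to 1.26, edgeR adjusted p = 0.661). With the 10 bases of the tRNA nearest that end as the reference it was -0.70 (SE 0.66, edgeR adjusted p = 0.559), so its direction was not settled.

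Relative to the other mitochondrial genes, the level of mt-Tg was close between genotypes and that of mt-Tr was lower in the mutant libraries without passing the test. Scaled by TMM over the mitochondrial genes, mean depth on mt-Tg was 588, 482 and 410 in Mrpp3WT and 549, 452 and 450 in Mrpp3N434S, or 493 ± 89.6 and 484 ± 56.7 (SD, n = 3). The groups overlapped, and the log2 difference was -0.03 (SE 0.24, 95% interval -0.52 to 0.46, edgeR adjusted p = 0.933). It was -0.44 scaled to library totals (edgeR adjusted p = 0.128), -0.66 scaled to rRNA (edgeR adjusted p = 0.0522) and 0.38 scaled to tRNA (edgeR adjusted p = 0.178). For mt-Tr it was 29.6, 20.7 and 20.5 in Mrpp3WT and 13.8, 12.4 and 18.9 in Mrpp3N434S, or 23.6 ± 5.21 and 15.0 ± 3.39 (SD, n = 3). Each mutant library was below each wild-type one, as in 7 of 34 genes (20.6%). All 7 were among the 19 tRNAs tested: mt-Tv, mt-Tm, mt-Ta, mt-Tn, mt-Tr, mt-Th and mt-Te. The separation was therefore not particular to mt-Tr. The log2 difference of mt-Tr was -0.69 (SE 0.24, 95% interval -1.18 to -0.19, edgeR unadjusted p = 0.00748, adjusted p = 0.0636), so mt-Tr was not among the 2 of 34 genes that changed (5.88%). The difference did not pass without wild-type replicate 1 (-0.45, edgeR adjusted p = 0.436) or 3 (-0.80, edgeR adjusted p = 0.107). Nor did it without mutant replicate 1 (-0.59, edgeR adjusted p = 0.151) or 2 (-0.66, edgeR adjusted p = 0.125). Without mutant replicate 3 it was -0.88 (edgeR adjusted p = 0.0182) and without wild-type replicate 2 -0.84 (edgeR adjusted p = 0.0456), both past the threshold. It also passed when scaled to library totals (-1.10, edgeR adjusted p = 0.0456) or to rRNA (-1.32, edgeR adjusted p = 0.0239), scalings that moved the median of all genes by -0.40 and -0.62, and it did not when scaled to tRNA (-0.26, edgeR adjusted p = 0.416), which moved that median by 0.41. All these scalings use mitochondrial depth alone, so a change shared by all mitochondrial RNA would not show in them. By DESeq2 the mt-Tr difference was -0.71 (DESeq2 adjusted p = 0.193). By edgeR it was -0.55 by highest depth per gene (edgeR adjusted p = 0.339) and -0.57 without a filter (edgeR adjusted p = 0.109). It was -0.70 with a replicate block (edgeR adjusted p = 0.0723) and -0.69 with positions above 6000 left out (edgeR adjusted p = 0.0518). None of these passed. In whole islets, fewer cells that hold much mt-Tr and less mt-Tr per cell cannot be told apart.

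None of the 3 mRNAs around the tRNAs passed the test with TMM scaling over all 6 libraries. Scaled depth of mt-Nd3 was 44.2, 64.2 and 50.9 in Mrpp3WT and 42.0, 52.4 and 51.4 in Mrpp3N434S (log2 -0.14, SE 0.24, edgeR adjusted p = 0.711). That of mt-Nd4l, also a complex I subunit, was 65.7, 68.1 and 81.1 against 67.7, 74.3 and 61.8 (log2 -0.08, SE 0.25, edgeR adjusted p = 0.876). That of mt-Co3, a subunit of cytochrome c oxidase, was 42.5, 40.8 and 39.4 against 72.1, 52.1 and 40.0, with mutant replicate 1 highest (log2 0.44, SE 0.25, edgeR adjusted p = 0.197). All 3 genes overlapped between the groups. mt-Co3 passed without mutant replicate 3 (log2 0.63, edgeR adjusted p = 0.0459; range without 1 library 0.17 to 0.63) and scaled to tRNA (0.86, edgeR adjusted p = 0.00959). Scaled to rRNA, mt-Nd3 (-0.73, edgeR adjusted p = 0.0408) and mt-Nd4l (-0.70, edgeR adjusted p = 0.0239) passed. Of the 19 tRNAs tested, 16 were lower and 3 higher in the mutant, with 1 changed and a median of -0.27. These counts moved with the scaling: 18 were lower and 8 changed scaled to totals (median -0.68), 18 were lower and 12 changed scaled to rRNA (median -0.91), and 6 were lower, 13 higher and 1 changed scaled to tRNA (median 0.15). Of the 11 tested forward-strand tRNAs, 9 were lower, with 1 changed and a median of -0.26. The 11 tested tRNAs with A at position 9 had 9 lower and 0 changed, also 0 changed by DESeq2, and a median of -0.32. By edgeR 5 of these 11 had an unadjusted p under 0.05, beside 6 of all 19 tRNAs and 12 of all 34 genes. By DESeq2 it was 3 of the 11, beside 4 of 19 tRNAs and 8 of 34 genes. Scaled to tRNA, 8 of the forward-strand list and 7 of the list with A at position 9 were higher instead, with medians of 0.16 and 0.07. Over all 34 genes the median was -0.03, and scaled to tRNA it was 0.38.

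**Figure D4:**
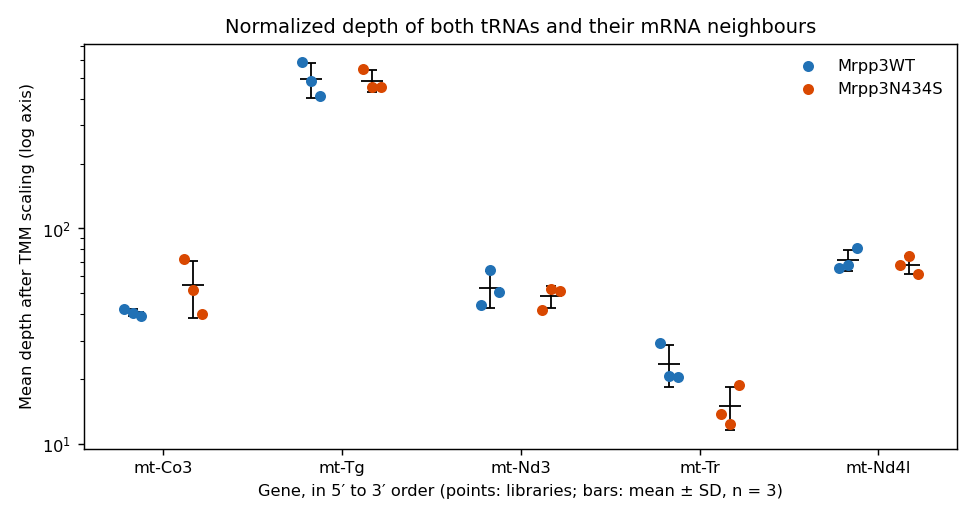
Mean depth after TMM scaling (logarithmic axis) of mt-Tg, mt-Tr and the 3 mRNAs around them, in their order along the chromosome; points are libraries, and bars are the mean ± SD of 3. The mt-Tg points overlap between genotypes, and the mt-Tr points do not, at 20.5 to 29.6 in Mrpp3WT and 12.4 to 18.9 in Mrpp3N434S.

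Within each library, mt-Tg was read many times more often than mt-Tr, and the ratio was higher in the mutant libraries. The depth of mt-Tg was 19.8, 23.2 and 20 times that of mt-Tr in Mrpp3WT and 39.8, 36.4 and 23.9 times in Mrpp3N434S. Each mutant library was above each wild-type one, although mutant replicate 3 (23.9) lay just above wild-type replicate 2 (23.2). How many other pairs of tRNAs separate in this way was not counted. The scaled depth of mt-Tr by itself was lower in every mutant library than in every wild-type one, as in 7 of 34 genes (20.6%), all of them tRNAs. The mean log2 ratio was 4.39 ± 0.13 and 5.03 ± 0.39 (SD, n = 3), a difference of 0.64. The exact two-sided permutation test gave p = 0.1, the smallest that 3 against 3 libraries allow, so it could not pass. Leaving out 1 library at a time gave differences from 0.49 to 0.86. Depth on mt-Nd3 was 0.143, 0.255 and 0.236 of the average of its flanking tRNAs in Mrpp3WT and 0.149, 0.226 and 0.219 in Mrpp3N434S, which overlapped (difference -0.08 on the log2 scale, exact two-sided permutation p = 0.6).

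Mismatched bases lay near the 5′ ends of both tRNAs. The stretches that held them are printed from the reference forward strand, with the bases above 5% mismatch in capitals: bases 1 to 20 of mt-Tg (chrM:9391-9410) and bases 5 to 24 of mt-Tr (chrM:9812-9831).
mt-Tg bases 1 to 20: actcccTtAgtataattaat
mt-Tr bases 5 to 24: aattAGttTaaaaaaaatta

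In mt-Tg these were position 9 and base 7. At position 9 the mismatched share was 11.9%, 10.8% and 20.6% in Mrpp3WT and 18.6%, 0% and 10.0% in Mrpp3N434S, or 14.4% ± 5.36 and 9.55% ± 9.33 (SD, n = 3). Over all libraries 31 of 244 bases were mismatched (12.7%, exact 95% interval 8.80% to 17.5%), 24 of them A9T and 7 A9G, and 5 of the 7 A9G were in mutant replicate 1. Mutant replicate 2 had 0 of 32, which allows a share of up to 10.9% by the exact interval, and the groups overlapped. At base 7 the share was 10.8%, 6.25% and 18.8% against 7.55%, 0% and 13.9%, and 20 of the 21 mismatched bases among 219 were T7C. Mutant replicate 2 was again at 0, and wild-type replicate 3 was the highest at both bases. Both T7C and A9T give the base that the reference holds 1 position further 5′. T7C was read 4, 2 and 6 times in Mrpp3WT and 4, 0 and 4 times in Mrpp3N434S, close to A9T with 5, 3 and 6 against 6, 0 and 4. The base counts do not show which bases share a read. Whether T7C and A9T came from the same reads was not tested. Base 10, next to position 9, had 0 mismatches among 373, and the median over the 67 bases other than position 9 was 0.183%. Where each library had 20 or more reads, the next highest shares were near the 3′ end, at base 63 (mean 0.691%), base 65 (0.576%) and base 60 (0.536%), where A63G made up 20 of 25 mismatched bases, A65G 20 of 25 and A60G 17 of 23.

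In mt-Tr mismatches were confined, above 5%, to position 9 and bases 10 and 13. Position 9 was mismatched in 2 of 20, 4 of 11 and 0 of 3 bases in Mrpp3WT and in 3 of 10, 1 of 7 and 1 of 8 in Mrpp3N434S. All 11 mismatches among 59 bases were A9G (18.6%, exact 95% interval 9.69% to 30.9%). At base 10, G10T was read 2, 4 and 0 times against 3, 1 and 1 times, the same number as A9G in each library. Base 13 had the highest share, with T13A in 11, 5 and 8 of 29, 14 and 12 bases in Mrpp3WT and in 7, 2 and 5 of 15, 8 and 12 in Mrpp3N434S. That was 46.8% ± 17.3 and 37.8% ± 11.3 (SD, n = 3), with overlapping groups, and 38 of 90 bases in all (42.2%, exact 95% interval 31.9% to 53.1%). At each of these 3 bases the mismatch is the base that the reference holds 1 position further 3′, and T13A adjoins the run of 8 A at bases 14 to 21. The intervening bases 11 and 12 are T and are followed by T. The files give neither gaps nor which bases share a read, so whether A9G, G10T and T13A came from the same reads was not tested. Of the 67 bases of mt-Tr other than position 9, 55 had no mismatch, but none had a depth of 20 in every library.

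**Figure D5:**
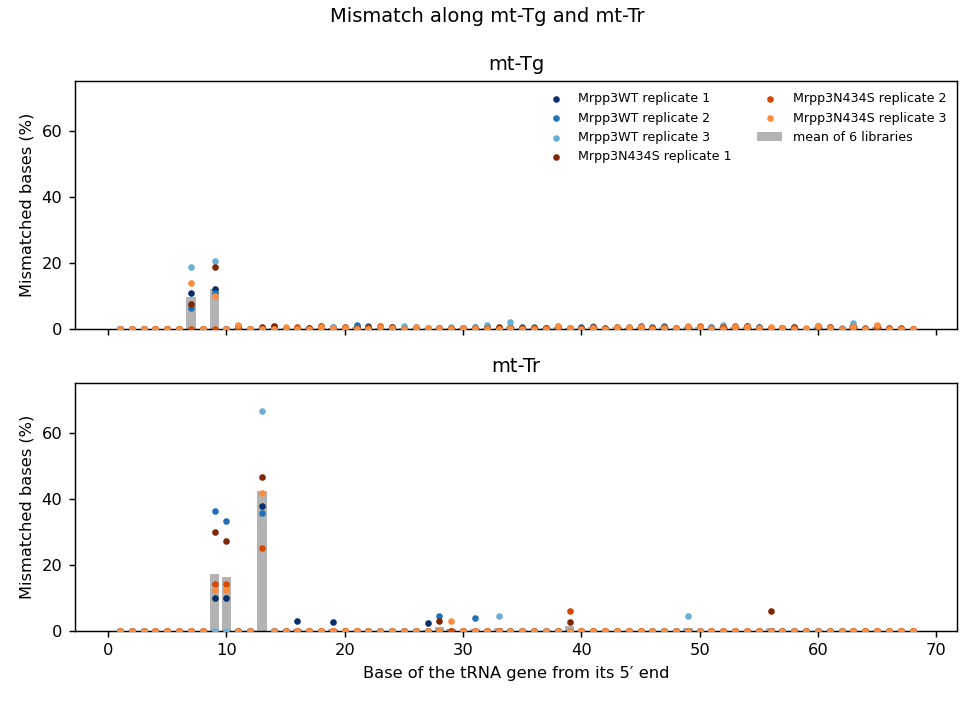
Mismatched bases as a percentage of all bases read (vertical axis) along mt-Tg (upper panel) and mt-Tr (lower panel), by base from the 5′ end; points are libraries and grey bars the mean of 6. High shares lie at base 7 and position 9 of mt-Tg and at position 9 and bases 10 and 13 of mt-Tr, where base 13 reaches 66.7% in wild-type replicate 3.

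Neither tRNA had enough depth at position 9 for the mismatch test, which needed 50 in every library and by edgeR called 0 of 10 tRNAs (0%), with 2 at an unadjusted p under 0.05 (0 called by limma, 0 by DESeq2). With a minimum of 10, the log2 difference of mismatched to reference bases in mt-Tg was -0.39 (SE 0.63, 95% interval -1.65 to 0.87, edgeR adjusted p = 0.775), and 0 of 13 tRNAs changed (0%). That interval spans both directions, so at this depth log2 differences in the odds from -1.65 to 0.87 at position 9 of mt-Tg were not excluded. At the other tRNA sites 0 of 29 changed by edgeR (0%), with 3 at an unadjusted p under 0.05, and no site of mt-Tg or mt-Tr was deep and mismatched enough to be among them.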

How the data were processed

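Small RNA libraries (Illumina TruSeq, per the labels' protocols) were made from islet total RNA of 6 mice. The authors deposited base counts (A, C, G, T, N) per strand and position of the mitochondrial chromosome (16299 positions), unscaled, per the file headers. The submitters' processing notes name Trim Galore, cutadapt, FastQC and STAR and the build GRCm38.p6; the base counter, its filters and the treatment of gaps and multiply matching reads are not stated there or in the labels. Reads that stop inside a tRNA, and RNA ends that take no adapter, shape such depth. From the deposited table of position 9, whose coordinates (unit other) were used, 16 columns of per-sample values match no sample label and were not used.

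Genes came from GENCODE on GRCm38. Depth was the sum of the base counts on a gene's strand, and sequences were read from the deposited reference bases. Mean depth per gene (at least 10) was tested with edgeR 4.0.16 (R 4.3.3) quasi-likelihood after TMM scaling. Ratios (position 9 to the rest of the highest depth over bases 20 to 60, bases 1 to 34 against 35 to 68, 10-base leader or trailer to tRNA, mismatched to reference bases) were tested in the same way with an effect for each library. Minimum depths were 50 in every library for position 9 and mismatch and a mean of 10 otherwise, and sites other than position 9 needed a mean mismatch of 1%. Tests ran over all genes, tRNAs or sites, and adjusted p-values are Benjamini-Hochberg with a threshold of 0.05. Standard errors and 95% intervals were derived from the log2 difference and its p. Two-sided exact permutation tests (scipy 1.17.1) compared single ratios. The models were tested on simulated data.

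Text names mt-Tg, mt-Tr, their mRNA neighbours, the 3 tRNAs of most similar profile to each, position 9 and the 5 bases of highest mismatch among those read 20 times or more in each library. Named after their values were seen were mt-Tl1 and mt-Tp for position 9 coverage, neighbours in the tRNA order, and mt-Tr bases 10 and 13. The members and lists were chosen with earlier results of these data known. The design text gives 3 mice per genotype. Between every 2 libraries the chi-square per degree of freedom of mean depth over genes was at least 3.33, so no library repeated another. Mean depths are not read counts, so this value does not measure counting noise. Alternatives were limma 3.58.1, DESeq2 1.42.0, other scalings, filters, windows and minimum depths, a replicate block, and each library left out in turn.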

Additional observations from a re-analysis of the deposited data

How the results depend on the processing

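Depth limits mt-Tr most: with 17 to 48 reads at its highest base, single reads move its ratios. The log2 difference in depth of mt-Tg turned positive by highest depth per gene (0.07), without a filter (0.08) and scaled to tRNA (0.38) and was -0.44 scaled to totals and -0.66 to rRNA, and that of mt-Tr passed scaled to totals (-1.10) and to rRNA (-1.32). That of mt-Tr did not pass by DESeq2 (-0.71), by highest depth per gene (-0.55), without a filter (-0.57) or with the replicate block (-0.70). Against the 10 bases at that end of the tRNA, the mt-Tr trailer difference was -0.70. Scaled to rRNA mt-Co3 measured -0.21; scaled to tRNA mt-Nd3 measured 0.26 and mt-Nd4l 0.32, and mt-Nd4l was 0.03 without a filter. Of 34 genes, 2 changed in depth (1 higher, 1 lower). The number was 9 scaled to totals (1 higher, 8 lower), 14 to rRNA (0 higher, 14 lower), 12 to tRNA (12 higher, 0 lower), 6 without a filter and 4 both by highest depth and with positions above 6000 left out. Of the bases 1 to 34 to 35 to 68 ratios, 2 changed, but 0 by limma, 0 by DESeq2 and 1 with the outer parts of the tRNA compared. Of trailers, 2 changed, but 1 by limma, 0 by DESeq2 and 1 against the tRNA end. The cause was not tested. Leaving out 1 library gave 0 to 11 genes changed in depth, 0 to 7 tRNAs at position 9 coverage, 0 to 2 for the ratio along the tRNA and 0 to 2 trailers, and 0 in each case for leaders and mismatch. It gave log2 differences of -0.19 to 0.12 for the depth of mt-Tg, -0.88 to -0.45 for that of mt-Tr, -0.13 to 0.04 and -0.34 to -0.20 for the ratio along mt-Tg and mt-Tr, -0.11 to 0.31 for the mt-Tg leader, -0.69 to -0.13 and 0.14 to 0.58 for the mt-Tg and mt-Tr trailers, and -0.70 to -0.23 for position 9 of mt-Tg. The ratio of mt-Nd3 to its flanking tRNAs ran from -0.34 to 0.12, reversed without wild-type replicate 2 (0.08), wild-type replicate 3 (0.03) or mutant replicate 1 (0.12). Replicate numbers are shared between genotypes, but libraries of the same number did not deviate together (r = -0.031, -0.254 and 0.23 over 34 genes). With the replicate block 0 genes changed in depth, 2 tRNAs at position 9 coverage and 0 in the ratio along the tRNA.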
